A study of Homo sapiens with 39 samples.

Results

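The genes described here are 33 known transcriptional targets of the tumor suppressor p53, taken as a list of gene symbols and looked up among the probes of the array by platform gene symbol. Where a gene had several probes, the one with the highest mean signal stood for it. Of the 33 targets, 31 had a probe, out of 20041 genes with a probe in all. Of these, 29 were above background and were tested, out of 11296 genes tested in all. BTG2 and FDXR were not analysed here, and the single probes of MDM4 and PLK3 were not above background in every sample of any group.

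RNA was taken from U87-MG, an established human glioblastoma (GBM) cell line grown as a single line in culture, and measured on Illumina HumanHT-12 v4 arrays. Cultures received an acute dose of 8Gy or 16Gy of gamma rays, or were sham irradiated in parallel (0Gy), and were collected on day 1, 4, 6 or 35, which gave 12 groups of dose and day. Each group of days 1, 4 and 6 held 3 samples from independent experiments, and each group of day 35 held 4 samples. The methods name 4 experimental replicates for these arrays. Elsewhere they describe 3 independent replicates, harvested on 3 successive days that together are called day 35. Which samples share an experiment or a harvest day is not stated, so a part of the spread on day 35 may be technical. Cells of the day 35 groups were counted and replated at a fixed density every few days, so these cultures were the progeny of cells that had survived the dose, and all groups shared the line, the serum-containing medium and the handling of the sham controls.

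In a cell without damage, the ubiquitin ligase MDM2 keeps p53 at a low level. After DNA double-strand breaks the kinases ATM and CHEK2 modify p53, which escapes MDM2, binds as a tetramer to a response element made of paired half-sites, and raises the transcription of genes for cell cycle arrest, DNA repair, death and its own feedback control. The best known of these targets, CDKN1A, encodes the cyclin-dependent kinase inhibitor p21 that holds irradiated cells out of the cycle.

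The response elements near the gene starts are shown first, because the list is defined by p53 and because the members that carry a clear element can be set beside those that moved. RefSeq promoter windows of GRCh38.p14, from 250 bases before to 50 bases after a start, were matched by symbol for 28 of the 33 targets, in 43 windows. An element was counted where 2 half-sites of 10 bases, with at most 1 base between them, held at most 3 mismatches to the p53 half-site pattern and kept its central C and G in each of them. The pattern reads the same on both strands, so 1 scan covered both. Such an element was in 2.38% of all 35116 windows and in windows of 2.91% of all genes in the table. It was in windows of 8 of the 28 targets, which is 28.6%, and 7 of those 8 were measured here. The half-sites are in capitals, each sequence runs 5′ to 3′ on the strand of its gene, and the stretches lie at chr11:47214975-47215003 (DDB2, + strand), chr15:88621302-88621329 (AEN, + strand), chr10:88991305-88991332 (FAS, + strand), chr12:68808919-68808946 (MDM2, + strand), chr19:18386182-18386207 (GDF15, + strand), chr18:59899807-59899834 (PMAIP1, + strand) and chr6:109009014-109009041 (SESN1, - strand).
DDB2: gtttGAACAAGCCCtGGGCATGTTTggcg
AEN: agccGGGCTTGCCCGGGCATGTGGgagc
FAS: tcctGGACAAGCCCTGACAAGCCAagcc
MDM2: agctGGTCAAGTTCAGACACGTTCcgaa
GDF15: gcacAGCCATGCCCGGGCAAGAACtc
PMAIP1: tcggGAGCGTGTCCGGGCAGGTCGcgct
SESN1: gtctGGACAAGTCTCCACAAGTCAgaaa

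The DDB2 element had 0 mismatches and began at position 6 after the start. Those of AEN, FAS and MDM2 had 2 mismatches, and those of GDF15, PMAIP1 and SESN1 had 3. CDKN1A, CD82 and TIGAR had no such element in their windows, and for the other 5 targets that rose in these data no window was matched. For CDKN1A, whose known p53 elements lie further upstream, the 120 bases before the start are shown at chr6:36678594-36678713 (+ strand), with each GGGCGG in capitals. The letters GGGCGG, on either strand, were in 45.0% of all windows and in 36 of the 43 windows of the targets, which is 83.7%.
CDKN1A: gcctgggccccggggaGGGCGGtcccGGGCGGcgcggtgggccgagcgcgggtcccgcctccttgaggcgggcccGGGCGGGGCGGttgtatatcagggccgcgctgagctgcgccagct

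Values are normalized log2 signals of the authors' table. Background was the level that all but a share of 0.05 of 455 olfactory receptor probes stayed under in a sample, and it lay between 6.78 and 6.90. VIM, CD44, NES, FN1 and TNC, markers of mesenchymal glioma cells, were above background in all 39 samples, while PTPRC of blood and KRT5 of epithelium were above it in 0. Of 4 glial markers OLIG2 was above it in all 39, at 6.91 to 7.76, SOX2 in 3, and GFAP and S100B in 0. EPCAM, another epithelial gene, was above background in 23 of the 39 samples, at 6.56 to 7.25 and so close to it. PECAM1 of endothelium passed in 9 samples and CD3E in 1. On day 35, samples with the same replicate number deviated together (mean correlation 0.28 to 0.71 across genes, highest for replicate 4), so the larger values of that day are also given without replicate 4. Signals describe whole cultures, so a smaller share of cells that express a gene and less RNA per cell cannot be told apart.

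The targets shifted upward as a group through the first 6 days, and 9 of the 29 were called higher in at least 1 of the 8 comparisons with 0Gy of the same day. To be called, a gene needed a fold change over 1.5 and, in limma, a p under 0.10 after Benjamini-Hochberg adjustment over the 11296 genes tested. On day 1, 1 target was called higher at 8Gy, where 0.0885% of all genes were, and 3 at 16Gy, where 0.602% were. On day 4, 5 were called higher at each dose, against 1.49% of all genes at 8Gy and 3.1% at 16Gy. On day 6, 3 were called higher at 8Gy and 8 at 16Gy, against 2.04% and 4.09% of all genes. On day 35 none was called at either dose, where 0% and 0.00885% of all genes were called higher. No target was called lower in any of the 8 comparisons, where the share of all genes called lower was 0.0443% at 8Gy and 0.62% at 16Gy on day 1, 0.301% and 1.57% on day 4, 1.2% and 3.77% on day 6 and 0% at both doses on day 35. As shares of the 29 tested, the counts of the first 6 days were 3.45%, 10.3%, 17.2%, 17.2%, 10.3% and 27.6%, each above the share of all genes.

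**Figure D1:**
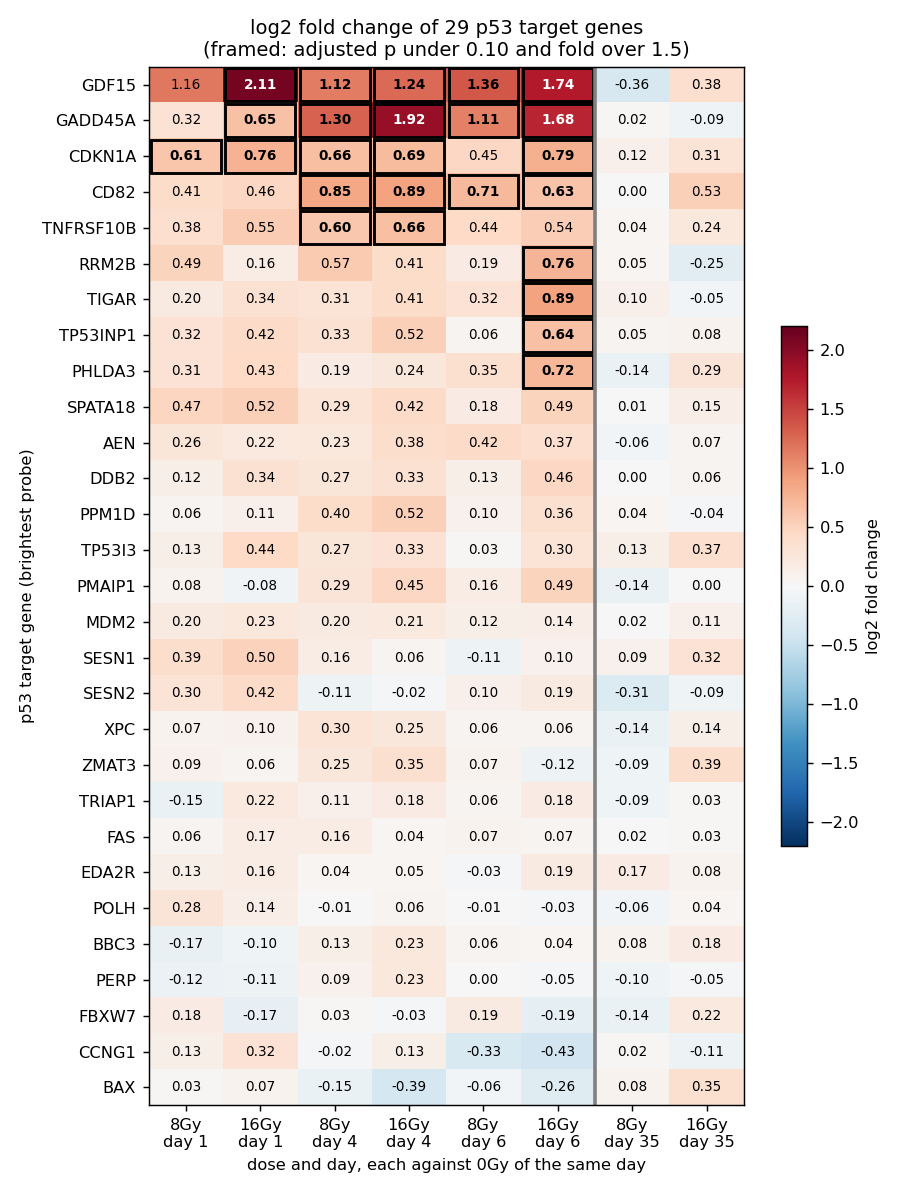
Fitted log2 fold change of each of the 29 tested p53 targets (rows, ordered by number of calls) against 0Gy of the same day, for 8 and 16Gy on 4 days (columns). Framed cells are called higher, and the gray line sets day 35 apart, where no cell is framed and values lie between -0.36 and 0.53.

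The median log2 fold change of the 29 targets was 0.20 at 8Gy and 0.23 at 16Gy on day 1. It was 0.25 and 0.33 on day 4, then 0.10 and 0.30 on day 6, while that of all genes stayed between -0.03 and 0.01. On day 35 it was 0.02 and 0.08, against 0.00 for all genes at both doses. Fitted values above 0 were found for 26 and 25 of the 29 on day 1 (53.1% and 51.3% of all genes), for 25 and 26 on day 4 (46.7% and 44.5%), for 24 and 23 on day 6 (43.8% and 45.3%) and for 16 and 22 on day 35 (50.8% and 50.9%). Every irradiated sample lay above every 0Gy sample for 9 and 13 targets on day 1 at 8Gy and 16Gy (6.37% and 9.88% of all genes), for 12 and 14 on day 4 (9.55% and 12.2%) and for 8 and 16 on day 6 (9.7% and 15.3%). On day 35 this held for 2 and 3 targets (0.398% and 1.43%). The 8Gy and 16Gy groups of a day share their 0Gy samples, so their values are not independent of each other.

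**Figure D2:**
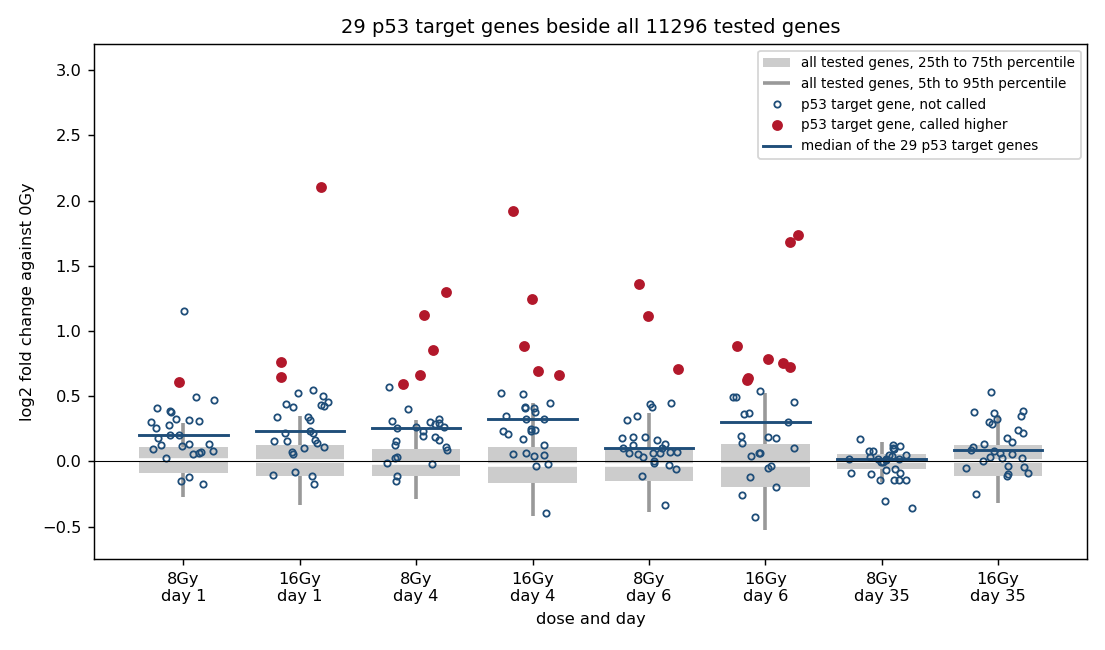
Log2 fold change against 0Gy for the 29 p53 targets (circles, filled red where called higher, blue bar at their median) beside the spread of all 11296 tested genes (gray box for the middle part between the quartiles, gray line from the 5th to the 95th percentile, white bar for the median). The blue bar lies above the gray box in the 6 comparisons of days 1, 4 and 6, by least at 8Gy on day 6, and inside it on day 35.

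Among the targets for cell cycle arrest, CDKN1A and GADD45A rose and CCNG1 did not. CDKN1A, which encodes p21, was higher on days 1, 4 and 6 by a similar amount. On day 1 its log2 signals were 12.56, 12.39 and 12.61 at 0Gy, 13.20, 13.21 and 12.99 at 8Gy and 13.27, 13.56 and 13.02 at 16Gy. On day 4 they were 12.79, 12.61 and 12.65 at 0Gy, 13.32, 13.46 and 13.24 at 8Gy and 13.34, 13.42 and 13.36 at 16Gy. On day 6 they were 12.60, 12.61 and 12.55 at 0Gy, 12.97, 13.05 and 13.08 at 8Gy and 13.14, 13.58 and 13.39 at 16Gy. On each of these days all 6 irradiated samples lay above all 3 samples at 0Gy. At 16Gy the log2 fold change was 0.76 on day 1, which was called. It was 0.69 (standard error 0.12, adjusted p = 2.0e-04) on day 4 and 0.79 (standard error 0.12, adjusted p = 1.8e-05) on day 6, a fold change of 1.62 and 1.72. At 8Gy it was 0.61 (standard error 0.12, adjusted p = 0.0516) on day 1, but leaving out replicate 1 or 2 at 0Gy, or 1 or 2 at 8Gy, removed this call, where the value was 0.50 to 0.64 with an adjusted p of 0.143 to 0.26. At 8Gy on day 4 it was 0.66 (standard error 0.12, adjusted p = 9.8e-04), and on day 6 it was 0.45 (standard error 0.12, adjusted p = 0.0191), a fold change of 1.37 and so under the fold threshold. The change of its 16Gy effect from day 1 to day 6 was 0.03 (95% interval -0.32 to 0.37). A second and much dimmer probe of CDKN1A, with a mean of 6.96, was called on day 4 at 8Gy (log2 fold change 0.60, adjusted p = 0.0618) and 16Gy (0.63, adjusted p = 0.0147) and on day 6 at 16Gy (0.78, adjusted p = 0.00128), and on day 1 it gave 0.25 at 8Gy and 0.21 at 16Gy, neither of them called. With the mean of both probes, the day 1 calls were lost at 8Gy and at 16Gy, where the value was 0.48 at 16Gy.

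GADD45A, whose product binds PCNA and p21 and takes part in the arrest before mitosis and in repair, rose most on days 4 and 6. On day 1 its log2 signals were 9.62, 9.65 and 10.01 at 0Gy, 9.98, 10.10 and 10.17 at 8Gy and 10.12, 10.52 and 10.58 at 16Gy, so that the 8Gy samples overlapped with those at 0Gy and the 16Gy samples did not. On day 4 they were 9.96, 9.70 and 9.50 at 0Gy, 11.02, 11.04 and 11.01 at 8Gy and 11.45, 11.81 and 11.67 at 16Gy, with no overlap between any of the 3 doses. On day 6 they were 10.05, 10.03 and 9.31 at 0Gy, 10.86, 11.08 and 10.79 at 8Gy and 11.48, 11.62 and 11.34 at 16Gy, again without overlap. The log2 fold change was 1.30 (standard error 0.17, adjusted p = 1.1e-05) at 8Gy and 1.92 (standard error 0.17, adjusted p = 3.3e-09) at 16Gy on day 4, and 1.11 (standard error 0.17, adjusted p = 3.5e-05) and 1.68 (standard error 0.17, adjusted p = 9.6e-09) on day 6. On day 1 it was 0.32 at 8Gy (adjusted p = 0.54), which was not called, and 0.65 (standard error 0.17, adjusted p = 0.0431) at 16Gy. Leaving out replicate 1 or 2 at 0Gy, or 2 or 3 at 16Gy, removed the day 1 call at 16Gy, where the value was 0.52 to 0.63 with an adjusted p of 0.141 to 0.24. The calls of days 4 and 6 were kept whichever single sample was left out. Its second probe gave 1.92 at 16Gy on day 4 (adjusted p = 1.1e-06) and 2.01 on day 6 (adjusted p = 2.3e-07), but 0.23 on day 1, which was not called.

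The GADD45A effect grew after day 1. At 16Gy the effect was greater on day 4 than on day 1 by 1.28 (standard error 0.24, adjusted p = 0.00195) and greater on day 6 than on day 1 by 1.04 (standard error 0.24, adjusted p = 0.00448) on the log2 scale. At 8Gy the gain was 0.98 (standard error 0.24, adjusted p = 0.0798) to day 4 and 0.79 (standard error 0.24, adjusted p = 0.0800) to day 6. The share of all genes called in these tests of a change was 4.61% and 10.5% at 16Gy and 0.39% and 2.95% at 8Gy, to day 4 and to day 6. Both calls at 16Gy were kept whichever single sample was left out. The calls at 8Gy were lost in 9 and 8 of the fits that left out 1 sample, the first with values of 0.81 to 1.04 and adjusted p of 0.113 to 0.373, the second with values of 0.54 to 0.85 and adjusted p of 0.101 to 0.281, and the call to day 4 was also lost without the replicate number in the model. From day 4 to day 6 none of the 29 targets was called for a change at either dose, and all genes were called at 0% and 0.062%.

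CCNG1, which encodes cyclin G1 and feeds back on p53 through MDM2, was called in no comparison with 0Gy. By its brighter probe, however, its 16Gy effect fell with time. Its log2 signals were 9.99, 10.07 and 10.23 at 0Gy and 10.24, 10.52 and 10.47 at 16Gy on day 1. On day 6 they were 10.91, 10.60 and 10.40 at 0Gy and 10.58, 9.90 and 10.15 at 16Gy. The 16Gy samples thus lay above those at 0Gy on day 1, while on day 6 each lay below the 0Gy sample of its own number, with overlap between the groups. The 16Gy effect changed by -0.74 (standard error 0.23, adjusted p = 0.0346) from day 1 to day 6, from 0.32 to -0.43 on the log2 scale. In the 0Gy cultures CCNG1 moved the other way, with 0.55 (standard error 0.16, adjusted p = 0.0171) on day 6 against day 1, a fold change of 1.46. The call for the change was lost without replicate 1 of 0Gy on day 6 (-0.59, adjusted p = 0.107) or without replicate 2 of 16Gy on day 6 (-0.58, adjusted p = 0.115). It was also lost with the mean of the gene's 2 probes (-0.33, adjusted p = 0.167). Without replicate 1 of 16Gy on day 6, the 16Gy value of that day was -0.63 (adjusted p = 0.00888) and passed as lower.

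**Figure D3:**
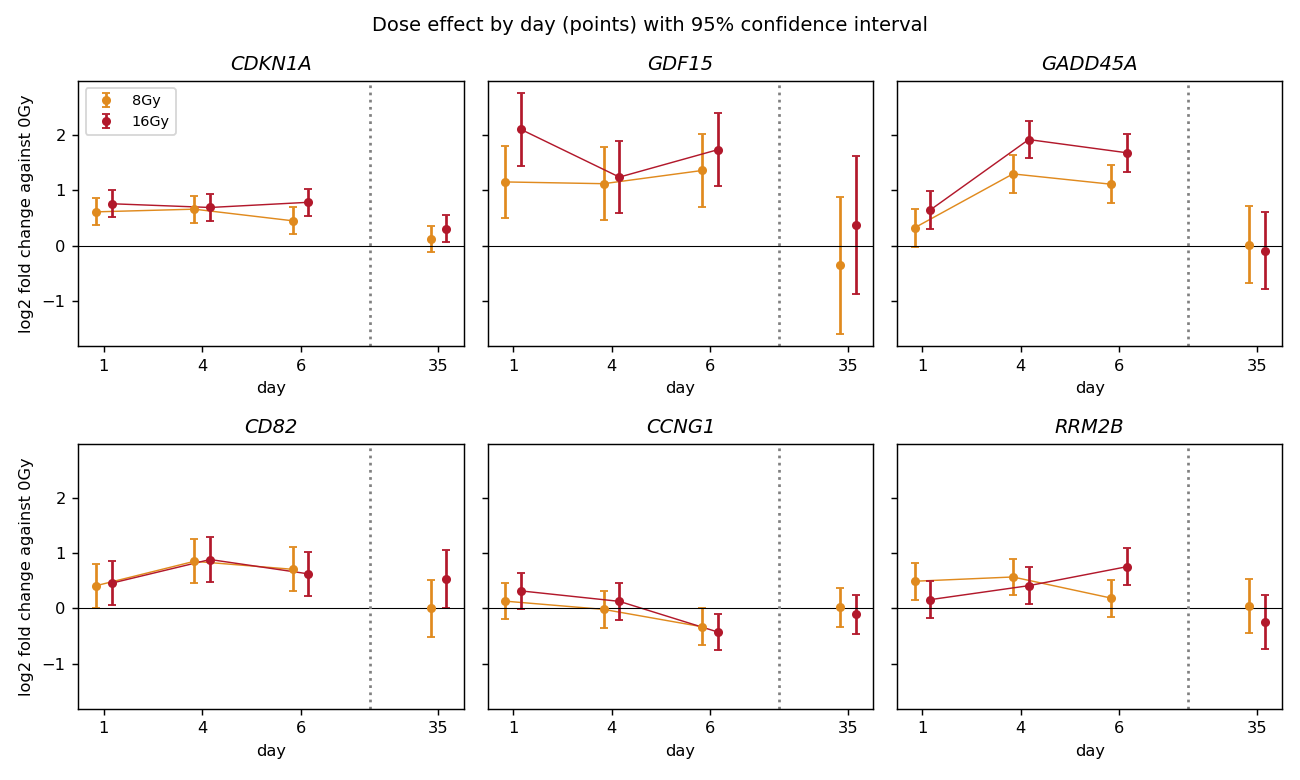
Log2 fold change against 0Gy of the same day (vertical axis) by day (horizontal axis) for 6 p53 targets at 8Gy (orange) and 16Gy (red), with 95% confidence intervals of the fit. The dotted line sets day 35 apart, which was normalized and fitted separately. By their brightest probes, GADD45A climbs after day 1, CDKN1A stays level and CCNG1 passes from above to below 0.

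Among the targets that encode secreted or membrane proteins, GDF15 and CD82 rose. GDF15, a stress-induced hormone of the TGF-beta superfamily, gave the highest log2 fold change of any target, and its level also rose with time in culture. On day 1 its log2 signals were 9.10, 8.42 and 9.64 at 0Gy, 10.07, 10.14 and 10.42 at 8Gy and 10.44, 11.56 and 11.48 at 16Gy. On day 4 they were 11.79, 11.36 and 11.08 at 0Gy, 12.69, 12.92 and 12.00 at 8Gy and 12.61, 13.29 and 12.06 at 16Gy. On day 6 they were 11.46, 11.11 and 10.57 at 0Gy, 12.40, 13.01 and 11.82 at 8Gy and 12.67, 13.48 and 12.21 at 16Gy. Irradiated samples lay above the 0Gy samples of their day throughout these days, but the 0Gy samples of day 4 were already within or above the range of the 16Gy samples of day 1. GDF15 and SPATA18 were the targets called between days at 0Gy, 1 of 29 on day 4 and 2 of 29 on day 6 against day 1, where 6.43% and 8.4% of all genes were called in either direction. GDF15 was 5.12-fold higher at 0Gy on day 4 than on day 1, or 2.36 on the log2 scale (adjusted p = 1.5e-05), and 3.98-fold higher on day 6, or 1.99 (adjusted p = 5.9e-05).

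The fold change of GDF15 against 0Gy of the same day was 4.31 at 16Gy on day 1 (adjusted p = 7.8e-04), 2.37 on day 4 (adjusted p = 0.0111) and 3.34 on day 6 (adjusted p = 2.5e-04). At 8Gy the log2 fold change was 1.16 (standard error 0.32, adjusted p = 0.21) on day 1, which was not called, 1.12 (standard error 0.32, adjusted p = 0.0656) on day 4 and 1.36 (standard error 0.32, adjusted p = 0.00771) on day 6. The day 1 value at 8Gy turned on 1 control, for without replicate 3 of 0Gy it was 1.61 with an adjusted p of 0.0227 and was called. Leaving out replicate 2 or 3 at 0Gy, or 1 or 2 at 8Gy, removed the day 4 call at 8Gy, where the value was 0.97 to 1.06 with an adjusted p of 0.215 to 0.287. The change of the 16Gy effect from day 1 to day 4 was -0.86 (95% interval -1.80 to 0.07) on the log2 scale, with an adjusted p of 0.34.

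CD82, a tetraspanin of the cell surface known as a suppressor of metastasis, was called on days 4 and 6 and not on day 1. On day 4 its log2 signals were 10.61, 10.29 and 9.66 at 0Gy, 10.93, 11.29 and 10.90 at 8Gy and 10.72, 11.46 and 11.04 at 16Gy. On day 6 they were 10.55, 10.07 and 10.37 at 0Gy, 11.09, 11.41 and 10.62 at 8Gy and 10.73, 11.29 and 10.85 at 16Gy, so that irradiated samples lay above all 0Gy samples on both days, by little for the nearest pair. The log2 fold change was 0.85 (standard error 0.20, adjusted p = 0.0122) at 8Gy and 0.89 (standard error 0.20, adjusted p = 0.00321) at 16Gy on day 4, and 0.71 (standard error 0.20, adjusted p = 0.0258) and 0.63 (standard error 0.20, adjusted p = 0.0250) on day 6. On day 1 the signals were 9.65, 9.79 and 10.02 at 0Gy, 10.38, 10.36 and 9.95 at 8Gy and 10.18, 10.49 and 10.16 at 16Gy, and the log2 fold changes were 0.41 and 0.46, neither called. Leaving out replicate 2, either at 0Gy or at the dose compared, removed the day 6 calls, with values of 0.47 to 0.60 and adjusted p of 0.168 to 0.251 at 8Gy, and of 0.39 to 0.53 and 0.113 to 0.241 at 16Gy. At 8Gy on day 4 the same held for replicate 3 at 0Gy (0.64, adjusted p = 0.217). The change of its effect from day 1 to day 4 was 0.43 (95% interval -0.14 to 1.00) at 16Gy and was not called. Its second probe was called only at 8Gy on day 6, with 0.69 (adjusted p = 0.0546).

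**Figure D4:**
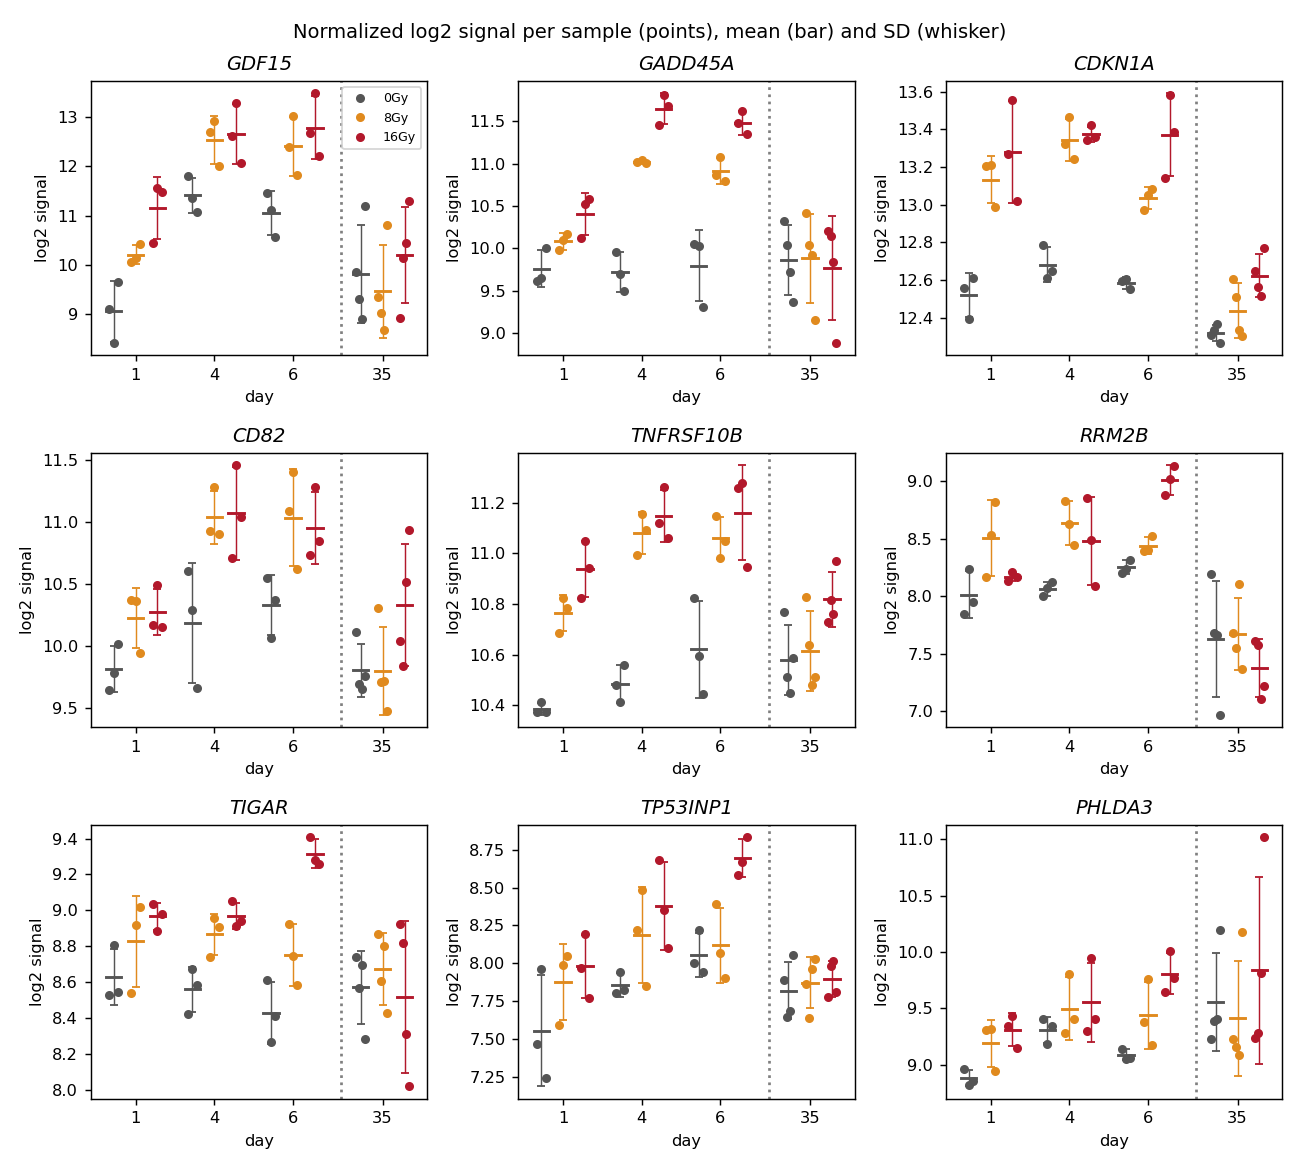
Normalized log2 signal of each sample (points) for the 9 p53 targets called higher at least once, by day and dose (gray 0Gy, orange 8Gy, red 16Gy), with the mean (bar) and SD (whisker) of each group. The dotted line sets day 35 apart, which was normalized separately, so levels are not comparable across it. On days 4 and 6 the irradiated points of GADD45A stand clear of the 0Gy points, and on day 35 the doses overlap in all but CDKN1A at 16Gy.

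Among the targets that act in cell death, 3 were called. TNFRSF10B, the TRAIL receptor DR5, was called at both doses on day 4 only. Its log2 signals on day 4 were 10.48, 10.41 and 10.56 at 0Gy, 10.99, 11.16 and 11.09 at 8Gy and 11.12, 11.26 and 11.06 at 16Gy, without overlap between 0Gy and either dose. It rose by 0.60 (standard error 0.12, adjusted p = 0.00423) on the log2 scale at 8Gy and 0.66 (standard error 0.12, adjusted p = 4.4e-04) at 16Gy. On days 1 and 6 its irradiated samples also lay above all 0Gy samples, at 0.38 and 0.55 on day 1 and 0.44 and 0.54 on day 6, with adjusted p values of 0.0185 and 0.00200 at 16Gy, but the fold change stayed under 1.5. Without replicate 1 of 16Gy on day 1 (0.62, adjusted p = 0.02), or replicate 1 of 0Gy or 3 of 16Gy on day 6 (0.65 and 0.64), the 16Gy values were called. Leaving out replicate 2 of 0Gy, or 2 or 3 of 8Gy, removed the call at 8Gy, where the value fell under the fold threshold at 0.54 to 0.57 with an adjusted p of 0.0343 to 0.0425. Both dimmer probes of the gene were called in no comparison.

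PHLDA3, an inhibitor of AKT signaling, and TP53INP1, a stress protein that promotes p53 activity, were called only at 16Gy on day 6. For PHLDA3 the day 6 signals were 9.14, 9.05 and 9.06 at 0Gy, 9.38, 9.76 and 9.17 at 8Gy and 9.65, 10.01 and 9.77 at 16Gy, with every irradiated sample above the 0Gy samples. At 16Gy this was a rise of 0.72 (standard error 0.15, adjusted p = 9.5e-04). For TP53INP1 they were 8.01, 8.22 and 7.94 at 0Gy, 8.39, 8.07 and 7.90 at 8Gy and 8.58, 8.67 and 8.83 at 16Gy, so that only the 16Gy samples stood clear of 0Gy, with 0.64 (standard error 0.16, adjusted p = 0.00622). That call was lost without replicate 3 of 16Gy (0.49, adjusted p = 0.082), and the dimmer probe of TP53INP1 gave 0.24 (adjusted p = 0.13).

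The other targets of this kind were not called. AEN, an apoptosis-enhancing nuclease, had 0.38 (standard error 0.13, adjusted p = 0.0696) at 16Gy on day 4, 0.42 (standard error 0.13, adjusted p = 0.0585) at 8Gy on day 6 and 0.37 (standard error 0.13, adjusted p = 0.0528) at 16Gy on day 6, which passed the adjusted p but not the fold. PMAIP1, the BH3-only protein NOXA, had 0.49 (standard error 0.18, adjusted p = 0.0515) at 16Gy on day 6, which reached 0.59 and a call without replicate 2 of 0Gy. BAX, the pore-forming effector of apoptosis, was at -0.39 at 16Gy on day 4 (adjusted p = 0.17) and ranged up to 0.35 in the 8 comparisons. BBC3, the BH3-only protein PUMA, and PERP, a desmosome component, stayed between -0.17 and 0.23, with every 95% interval inside 1.5-fold. TP53I3, an oxidoreductase tied to oxidative stress, reached 0.44 at 16Gy on day 1 (adjusted p = 0.11), and TRIAP1, a small survival protein, ranged from -0.15 to 0.22. FAS, the death receptor CD95, and EDA2R, a receptor of the same superfamily, had mean signals between 6.71 and 7.06 in every group, at the level of background, so small values there carry little information.

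ZMAT3, an RNA-binding regulator of splicing, depended on the probe. Its brightest probe gave 0.09 at 8Gy and 0.06 at 16Gy on day 1. A second probe, also bright, gave 0.63 (adjusted p = 0.18) and 0.62 (adjusted p = 0.0556, called), and the last gave 0.50 and 0.43, neither called. On days 4 and 6 no probe of ZMAT3 was called. Which transcripts the probes detect was not tested.

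Among the targets that act in repair, nucleotide supply and metabolism, RRM2B and TIGAR were called, both only at 16Gy on day 6. RRM2B, the p53-induced subunit of ribonucleotide reductase, had log2 signals of 8.20, 8.24 and 8.32 at 0Gy, 8.39, 8.40 and 8.53 at 8Gy and 8.88, 9.02 and 9.13 at 16Gy on day 6, with both doses clear of 0Gy. On the log2 scale the difference from 0Gy was 0.76 (standard error 0.16, adjusted p = 0.00129) at 16Gy and 0.19 at 8Gy. On day 4 it was 0.57 (standard error 0.16, adjusted p = 0.0656) at 8Gy, just under the fold threshold, and it was called without replicate 3 of 8Gy (0.67, adjusted p = 0.0633). Its 16Gy effect grew from day 1 to day 6 by 0.60 (standard error 0.23, adjusted p = 0.0955), a call that was lost in 24 of 38 alternative fits, 19 of which left out 1 sample and gave 0.49 to 0.63 with an adjusted p of 0.101 to 0.238. On day 1 its signals were 7.84, 8.24 and 7.95 at 0Gy and 8.16, 8.53 and 8.82 at 8Gy. At 16Gy they were 8.14, 8.21 and 8.17. Each 8Gy sample of day 1 thus lay above the 0Gy sample of its own number. No change of the 8Gy effect between days was called for this gene. A second probe of RRM2B, near background at a mean of 6.99, gave 0.03 at 16Gy on day 6.

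TIGAR, which lowers glycolytic flux, had day 6 signals of 8.61, 8.27 and 8.41 at 0Gy, 8.92, 8.75 and 8.58 at 8Gy and 9.41, 9.28 and 9.26 at 16Gy. The 16Gy samples stood clear of both other groups, while 8Gy overlapped with 0Gy. At 16Gy the gene rose by 0.89 (standard error 0.14, adjusted p = 3.2e-05) on the log2 scale, a fold change of 1.85. The analysis of variance of the study's methods, across all 12 groups with Holm's adjustment, called neither this nor the values of PHLDA3, TP53INP1 and CD82 given as called. From day 1 to day 6 its 16Gy effect grew by 0.55 (standard error 0.20, adjusted p = 0.0750), a fold change of 1.46 and so not called.

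The DNA damage sensor DDB2, which carried the closest match to a p53 element, had log2 signals of 7.27, 7.23 and 7.42 at 0Gy, 7.61, 7.56 and 7.15 at 8Gy and 7.64, 7.84 and 7.81 at 16Gy on day 6. Its log2 fold change at 16Gy was 0.46 (standard error 0.14, adjusted p = 0.0258), past the adjusted p but not the fold. XPC, which recognizes the same kind of damage, stayed between -0.14 and 0.30. POLH, a polymerase for damaged templates, stayed between -0.06 and 0.28, with mean signals of 6.74 to 7.02 close to background. SESN1, which restrains mTORC1, had its highest value early, with log2 signals of 7.35, 7.67 and 7.33 at 0Gy, 7.89, 7.82 and 7.81 at 8Gy and 8.06, 7.98 and 7.81 at 16Gy on day 1 and every irradiated sample above 0Gy. The log2 fold change at 16Gy was 0.50 (standard error 0.12, adjusted p = 0.0326) on day 1, and 0.06 and 0.10 on days 4 and 6. The fall of its effect from day 1 to day 6 was not called at either dose (adjusted p = 0.14 at 8Gy and 0.14 at 16Gy). SESN2, its paralog, had 0.42 at 16Gy on day 1 (adjusted p = 0.13) and rose with time in the 0Gy cultures at under 1.5-fold, with 0.52 (standard error 0.14, adjusted p = 0.0124) on day 4. SPATA18, which takes part in mitochondrial quality control, had 0.52 (standard error 0.15, adjusted p = 0.0623), 0.42 (standard error 0.15, adjusted p = 0.0644) and 0.49 (standard error 0.15, adjusted p = 0.0171) at 16Gy on days 1, 4 and 6, each under the fold threshold, and its 0Gy level rose by 0.68 (standard error 0.15, adjusted p = 0.00131) from day 1 to day 6.

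Among the targets that feed back on p53, none was called. PPM1D, the phosphatase WIP1 that reverses damage signaling, came nearest, with log2 signals of 7.30, 7.25 and 7.38 at 0Gy and 7.92, 7.61 and 7.97 at 16Gy on day 4. Its log2 fold change was 0.52 (standard error 0.13, adjusted p = 0.00822) at 16Gy on day 4 and 0.36 (standard error 0.13, adjusted p = 0.0525) on day 6. Without replicate 3 of 0Gy or replicate 2 of 16Gy the day 4 value was 0.60 or 0.66 and was called. MDM2, the ligase that marks p53 for degradation, had log2 signals of 6.88, 6.82 and 6.78 at 0Gy, 6.94, 7.02 and 7.13 at 8Gy and 7.19, 7.12 and 6.86 at 16Gy on day 1. It stayed between 0.02 and 0.23 in the 8 comparisons, but its probe was dim, with a mean of 6.83 at 0Gy on day 1 against a background of 6.84, and at that level a change in the transcript is understated. FBXW7, a ubiquitin ligase subunit, ranged from -0.19 to 0.22, with every 95% interval inside 1.5-fold.

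By the pattern of calls, 3 targets were early, being called on day 1: CDKN1A, GDF15 and GADD45A. All 3 were also lasting, being called on both day 4 and day 6, as was CD82. With the mean of a gene's probes, only GDF15, which had 1 probe, kept its day 1 call. Late calls, on day 4 or 6 but not on day 1, were made for 6 targets, CD82, TNFRSF10B, PHLDA3, RRM2B, TIGAR and TP53INP1. These classes describe calls. A larger effect on day 4 or 6 than on day 1 was called for GADD45A at both doses. At 8Gy its call was lost in 13 of 38 alternative fits to day 4 and in 10 of 38 to day 6. For RRM2B a larger effect was called at 16Gy only, from day 1 to day 6, and was lost in 24 of 38 alternative fits. For CD82, TNFRSF10B, PHLDA3, TIGAR and TP53INP1 it was not called, so that a later onset was not shown for them. The other 20 of the 29 were called in no comparison. Of these 20, 7 had 95% intervals inside 1.5-fold in all 8 comparisons, namely BBC3, EDA2R, FAS, FBXW7, MDM2, PERP and POLH, of which EDA2R, FAS, MDM2 and POLH lay near background. Another 7 passed the adjusted p of 0.10 at least once under the fold threshold, namely AEN, DDB2, PMAIP1, PPM1D, SESN1 and SPATA18 with higher values and CCNG1 with a lower one. The 95% interval lay inside 1.5-fold for 18 and 14 of the 29 on day 1 at 8Gy and 16Gy, for 16 and 13 on day 4 and for 20 and 12 on day 6, where all genes gave shares of 88.5% and 83.2%, 87.2% and 76.9%, and 81% and 71%. At the adjusted p alone, 1, 6, 6, 10, 6 and 15 targets passed in the comparisons of days 1, 4 and 6, listed by day with 8Gy before 16Gy, where 0.177%, 3.13%, 3.08%, 14.6%, 9.32% and 24.5% of all genes did.

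Of the 7 measured targets with a p53 element near a start, GDF15 was called higher. DDB2, AEN, FAS, MDM2, PMAIP1 and SESN1 were called in no comparison. Among all 29 tested targets 9 were called, and 4 of those 9 had a matched window. DDB2, AEN, PMAIP1 and SESN1 passed the adjusted p at least once, with a rise under the fold threshold. FAS and MDM2 lay near background. Whether an element goes with a response was not tested. No match in the window says only that these letters are not in that window.

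The doses did not differ by call in any of the 29 targets on any of the 4 days, where the share of all genes called between 16Gy and 8Gy was 0%, 0.0177%, 0.398% and 0% on days 1, 4, 6 and 35. At an unadjusted p under 0.05 limma gave 3, 1, 10 and 2 of the 29 on these days, where 3.49%, 4.96%, 12.1% and 4.63% of all genes passed. Fitted values at 16Gy were above those at 8Gy for 23, 23, 18 and 23 of them, and for 48.9%, 44.5%, 49.7% and 51.1% of all genes. On day 6 TIGAR differed between doses by 0.57 (standard error 0.14, adjusted p = 0.0650), a fold change of 1.48 and so just under the threshold. TP53INP1, RRM2B and GADD45A differed on day 6 by 0.58 (95% interval 0.24 to 0.91), 0.57 (95% interval 0.24 to 0.90) and 0.57 (95% interval 0.23 to 0.91), with adjusted p values of 0.14, 0.14 and 0.16. For CDKN1A the difference was 0.15 (95% interval -0.10 to 0.39) on day 1, 0.03 (95% interval -0.21 to 0.27) on day 4 and 0.34 (95% interval 0.09 to 0.58) on day 6. For GDF15 it was 0.95 (95% interval 0.29 to 1.61) on day 1, an interval that leaves room for a difference of over 1.5-fold that these samples could not call.

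On day 35, in the progeny of the surviving cells, none of the 29 targets was called at either dose. At an unadjusted p under 0.05 limma gave 1 target at 8Gy and 4 at 16Gy, where 69 and 445 of all genes passed. The analysis of variance of the study's methods with Holm's adjustment called 0 as well. It could call none, for no target reached the fold threshold. The 3 largest values at 16Gy were those of CD82, ZMAT3 and GDF15. CD82 had log2 signals of 10.12, 9.69, 9.65 and 9.76 at 0Gy, 10.31, 9.71, 9.72 and 9.48 at 8Gy and 10.04, 9.84, 10.52 and 10.94 at 16Gy, with overlap between 0Gy and 16Gy, a log2 fold change at 16Gy of 0.53 (95% interval 0.01 to 1.05) and an exact two-sided permutation p of 0.0857. This test was run on each of the 29 targets at each dose. It takes the 4 samples of a dose as separate and unpaired, although they may stand for 3 experiments and same-numbered samples deviated together. ZMAT3 had 12.66, 13.10, 12.60 and 13.05 at 0Gy, 12.58, 13.24, 12.45 and 12.80 at 8Gy and 12.75, 13.12, 13.17 and 13.92 at 16Gy, and its 16Gy value was 0.39, with a 95% interval of -0.13 to 0.90 and an exact p of 0.143. GDF15 had 9.85, 9.31, 8.91 and 11.20 at 0Gy, 9.34, 9.03, 8.67 and 10.81 at 8Gy and 8.92, 10.14, 10.44 and 11.29 at 16Gy, and the sample of replicate 4 was the highest at each dose. Its 16Gy value was 0.38, with a 95% interval of -0.87 to 1.62 and an exact p of 0.543. At 8Gy each sample lay below the 0Gy sample of its own number, with a value of -0.36, a 95% interval of -1.60 to 0.89, an exact p of 0.600 and, over the 4 pairs, an exact sign-flip p of 0.125, the smallest that 4 pairs can give. Without replicate 4 of every dose, the 16Gy value was 0.31 for CD82, 0.23 for ZMAT3 and 0.47 for GDF15. With only the 16Gy sample of that number left out, the value of GDF15 was 0.01 and that of ZMAT3 0.16.

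CDKN1A, SESN1 and TP53I3 were the targets whose 16Gy samples all lay above the 0Gy samples on day 35. For CDKN1A these were 12.65, 12.56, 12.51 and 12.77 against 12.31, 12.33, 12.37 and 12.27, which is 1.24-fold higher, or 0.31 on the log2 scale with a standard error of 0.11. For SESN1 they were 7.70, 7.81, 7.86 and 8.44 against 7.65, 7.68, 7.51 and 7.68, with 0.32, and for TP53I3 7.87, 7.76, 7.95 and 8.31 against 7.53, 7.67, 7.61 and 7.60, with 0.37. Each had an exact p of 0.0286, the smallest that 4 against 4 samples can give, an exact sign-flip p of 0.125 over the pairs and an adjusted p of 0.86 over all genes in limma, or 0.34 to 0.35 with the replicate number as a block. Without replicate 4 of every dose the values were 0.24 for CDKN1A, 0.18 for SESN1 and 0.26 for TP53I3. At 8Gy the same held for SESN1 and TP53I3, with 0.09 and 0.13 and the same exact p values, while 8Gy samples of CDKN1A overlapped with 0Gy. GADD45A was at 10.21, 10.15, 9.84 and 8.89 at 16Gy and 10.33, 10.04, 9.72 and 9.37 at 0Gy, with full overlap and a log2 fold change of -0.09 (95% interval -0.79 to 0.61), which was 0.04 without replicate 4 of every dose. Of the 29 targets, 24 at 8Gy and 19 at 16Gy had 95% intervals inside 1.5-fold on day 35, as had 79.6% and 66.6% of all genes. Without replicate 4 of every dose, which like the test over pairs was chosen after the values were seen, and with the replicate number as a block, 0 targets were called on day 35. The largest value against 0Gy on day 35 was 0.531, under the fold threshold of 0.585 on the log2 scale. A block leaves these values unchanged, so it could not have given a call.

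The rest of the p53 pathway was looked up in 3 lists. Of 16 tested genes that encode regulators of p53, none was called on days 1 and 4. On day 6 HIPK2, a kinase that phosphorylates p53, was called higher at 8Gy (log2 fold change 0.62, adjusted p = 0.0326), and ATM was called lower at 16Gy (-0.79, adjusted p = 0.00416). Of all genes, 2.04% were called higher at 8Gy and 3.77% lower at 16Gy on that day. The median log2 fold change of the 16 stayed between -0.09 and 0.07 over days 1 to 6.

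Of 32 further direct targets of p53 that were tested, 1 and 3 were called higher on day 1 at 8Gy and 16Gy, then 2 and 4 on day 4 and 4 and 5 on day 6, and none was called lower. For comparison, the shares of all genes called higher were 0.0885% (8Gy) and 0.602% (16Gy) at day 1. By day 4 these shares were 1.49% (8Gy) and 3.1% (16Gy). By day 6 they were 2.04% (8Gy) and 4.09% (16Gy). IGFBP3, which binds insulin-like growth factors, had log2 fold changes of 1.63 on day 4 (adjusted p = 4.8e-04) and 2.07 on day 6 (adjusted p = 1.0e-05) at 16Gy. TNFRSF10D, a decoy receptor for TRAIL, had 1.86 at 16Gy on day 6 (adjusted p = 3.6e-07), and SERTAD1, a cofactor of E2F, had 1.14 (adjusted p = 4.4e-06). TGFA, a ligand of EGFR, was called at 16Gy on days 1, 4 and 6 with 1.04, 0.83 and 0.99. DDIT4, an inhibitor of mTORC1, was called on day 1 only, with 1.04 at 8Gy (adjusted p = 0.0516) and 1.01 at 16Gy (adjusted p = 0.0118). THBS1, a matrix glycoprotein, was called at 16Gy on day 6 with 0.61 (adjusted p = 0.0567). CYFIP2, a member of the WAVE complex that steers actin, was called at 16Gy on day 1 with 0.77 (adjusted p = 0.0127). The median of the 32 lay between 0.03 and 0.17 over days 1 to 6, under that of the 29 targets in each of these comparisons.

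Of 12 tested cell cycle genes that p53 holds down through p21, 1 and 3 were called lower at 8Gy and 16Gy on day 1, none on day 4, and 1 and 4 on day 6, and none was called higher. The matching shares of all genes called lower were 0.0443% (8Gy) and 0.62% (16Gy) at day 1. By day 4 they were 0.301% (8Gy) and 1.57% (16Gy), and by day 6 1.2% (8Gy) and 3.77% (16Gy). On day 1 AURKB, a mitotic kinase, was at -0.84 at 8Gy (adjusted p = 0.0553) and -0.69 at 16Gy (adjusted p = 0.0355). On the same day at 16Gy, CCNA2, which encodes cyclin A2, was at -0.94 (adjusted p = 0.0121). MCM5, a subunit of the replicative helicase, was at -0.64 there (adjusted p = 0.0443). On day 6 at 16Gy the mitotic genes CCNB2, CDC20, CCNB1 and BIRC5 were at -0.81, -0.79, -0.73 and -0.66, with adjusted p values of 6.2e-04, 0.005, 0.00173 and 0.0317. The median of the 12 was -0.43 at 8Gy and -0.31 at 16Gy on day 1, 0.10 at 8Gy and 0.05 at 16Gy on day 4, then -0.23 and -0.36 at the same doses on day 6. The 0Gy cultures themselves had lower signals of these genes later on, for 11 of the 12 were called lower on day 4 and 10 on day 6 against day 1, with a median of -1.09 on day 4. Of all 11296 genes, 313 and 421 were called lower in the same comparisons. The controls against which the irradiated cultures of days 4 and 6 were set thus differed from those of day 1, and the part of this in the values of the p53 targets was not tested. On day 35 none of the 3 lists had a gene called at either dose.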

How the data were processed

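Per the labels and methods, total RNA was hybridized to Illumina HumanHT-12 v4 arrays and read with the GenomeStudio Gene Expression module 1.6.0. The authors deposited a table of log2 signals for 47300 probes, quantile normalized separately for the 27 samples of days 1, 4 and 6 and the 12 of day 35. They applied ComBat to the former, with batches not given in the sources used here, and averaged 2 technical runs in replicate 1. Levels were therefore not compared between days 6 and 35. An unnormalized table, whose 96 columns (48 arrays) could not be tied to samples, was not used, so neither detection p-values nor a slide block could be applied.

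Of the probes, 30100 carried 1 gene, and the brightest probe stood for each of 20041 genes. Tested genes (11296) were those that passed background in all samples of 1 or more groups, and limma 3.58.1 in R 4.3.3 was used (lmFit, eBayes with a mean trend, Benjamini-Hochberg adjustment over all of them), with 1 fit for the 27 samples, including the replicate number, and 1 for day 35 without it. Same-numbered short-term samples had mean correlations of -0.13 to 0.39 in their deviations from group means, so numbers pair them only in part, while on day 35 every same-numbered pair correlated by 0.12 or more. The methods describe the short-term samples as independent replicates. The short-term p-values measure the spread left between them after ComBat and after the replicate number in the model. How far ComBat had narrowed that spread was not tested. On day 35 the 4 samples of a dose may stand for 3 independent experiments, for the methods give both numbers. The p-values of that day may therefore measure technical spread in part. The number of arrays limits the precision, with a median standard error of 0.13 for log2 fold changes in the short term and 0.15 at day 35. The code was tested on simulated data.

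Members and lists were chosen with earlier results of these data known. The rule for naming gave sample values for every target called, and on day 35 for the 3 with the largest absolute values at 16Gy. Other targets were given by role. From the pathway lists, called genes were named, up to 6 a list by size at 16Gy on day 6. AURKB and CYFIP2, and the sample values of CCNG1, SESN1, PPM1D, DDB2, MDM2 and TP53I3, were added after their values were seen. Promoter windows came from RefSeq (GRCh38.p14). Alternatives covered the replicate term, normalization, probe filter, probe choice, thresholds, array weights, the methods' analysis of variance and each sample left out.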

Additional observations from a re-analysis of the deposited data

Results flagged for a closer look

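On day 35, 6 of the 87 groups of 4 samples examined (each target at each dose) held 1 sample far from the other 3 by Dixon's criterion. The criterion is set to flag about 1 in 20 independent groups. These 87 groups share the same 12 samples, so whether 6 differs from chance was not tested. Of these 6 samples, 5 were of replicate 4, whose samples deviated together across genes. PHLDA3 at 8Gy was 10.17 in replicate 4, against 9.22 in the next highest sample. FBXW7 at 16Gy was 7.86 in replicate 4, against 7.19. XPC at 0Gy was 9.22 in replicate 4, the lowest, against 9.38. EDA2R was lowest in replicate 4 at both 8Gy (6.90) and 16Gy (6.81). SPATA18 at 0Gy was 7.58 in replicate 1, the highest.

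The effect of a dose differed between days by a test of the difference for 3 targets. GADD45A gained 0.98 at 8Gy and 1.28 at 16Gy from day 1 to day 4, and 0.79 at 8Gy and 1.04 at 16Gy from day 1 to day 6, on the log2 scale. The 16Gy effect of CCNG1 changed by -0.74 from day 1 to day 6, and that of RRM2B by 0.60. With the mean of each gene's probes, neither of these last changes was called.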

How the results depend on the processing

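No value of a target changed its direction while called under any alternative. Of the values of single targets, 8499 kept their side of the thresholds or moved within the spread, 92 fell short of a threshold they had passed, 34 newly passed one and 87 others moved. Of the counts, 691 stayed within 1.5 times and 55 did not. Without the fold threshold the targets called higher at least once went from 9 to 15 and CCNG1 was called lower, with 6 at 16Gy on day 1, 10 at 16Gy on day 4, 6 at 8Gy and 15 at 16Gy on day 6, 1 between the doses on day 6, and 7 and 8 between days at 0Gy. The methods' analysis of variance called 5 targets at least once (not CD82, PHLDA3, TIGAR or TP53INP1), 2 at 8Gy on day 1 and 4 at 16Gy on day 6. With the mean of a gene's probes, 0 and 1 were called on day 1 at 8Gy and 16Gy, 3 at 8Gy on day 4, 1 for a change of the 16Gy effect from day 1 to day 6 and 0 for one of the 8Gy effect to day 4. At an adjusted p of 0.05 the day 1 call at 8Gy and both changes of the 8Gy effect went to 0. Array weights left 0 at 8Gy on day 1 and gave 1 between the doses on day 6. Without the filter on dim probes both changes of the 8Gy effect went to 0.

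With 1 sample left out, the number called was 0 to 2 at 8Gy and 2 to 4 at 16Gy on day 1, 3 to 5 and 5 to 7 on day 4, 2 to 3 and 7 to 9 on day 6, and 0 to 0 at both doses on day 35. Between doses it was 0 to 2 on day 6, the 2 without replicate 1 of 8Gy, and 0 on the other days. Between days at 0Gy it was 1 to 2 on day 4 and 2 to 4 on day 6. For changes of the 16Gy effect it was 1 to 2 from day 1 to day 4, 1 to 4 from day 1 to day 6 (1 without replicate 2 of 16Gy on day 6) and 0 from day 4 to day 6. For those of the 8Gy effect it was 0 to 1 from day 1 to day 4 and to day 6, and 0 from day 4 to day 6.

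The replicate block on days 1, 4 and 6 changed 1 count. Without it the change of the 8Gy effect from day 1 to day 4 called 0 in place of 1, and all other counts of calls were the same. With the block on day 35 the counts stayed at 0, which for the comparisons with 0Gy the fold threshold alone fixed. Each day fitted alone with its own block gave the same counts, with GDF15 in place of CDKN1A at 8Gy on day 1. Same-numbered samples correlated by 0.28 to 0.71 on day 35, by 0.09 to 0.29 on day 1, by -0.13 to 0.12 on day 4 and by 0.19 to 0.39 on day 6, so the numbers do not pair all days. Filters on detection p and a slide block were not run, since the unnormalized columns could not be tied to samples. Centring arrays moved them by -0.025 to 0.023. Signals near background, as for MDM2, FAS, POLH and EDA2R, limit what could be called.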
